A study of Mus musculus with 6 samples.

Results

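The Cyp3a cytochromes are a family of haem-containing monooxygenases of liver and gut. The 8 genes described here, Cyp3a11, Cyp3a13, Cyp3a16, Cyp3a25, Cyp3a41a, Cyp3a41b, Cyp3a44 and Cyp3a59, were chosen by name from 47256 gene names listed once in every mouse. Their expression was measured by RNA-Seq in the livers of 6 house mice (Mus musculus), 1 library per mouse, as part of a study of chromatin in preserved specimens. The 3 laboratory mice were adult males of the inbred strain C57BL/6, killed on arrival from a breeder. The 3 wild mice were adult outbred animals trapped live in the field and kept for months in captivity. Wild mouse 1 was male, and wild mice 2 and 3 were female. Wild mouse 3 was trapped at another site than wild mice 1 and 2. The labels name no treatment, and the livers were frozen without formalin. Laboratory mice are thus 3 animals of 1 strain and 1 sex. Origin, genotype, housing, time of preparation and, in part, sex differ together between the groups.

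Cyp3a enzymes sit in the endoplasmic reticulum and hydroxylate steroids, bile acids and a wide range of drugs, taking electrons from the reductase Por and from cytochrome b5. In hepatocytes their genes are classic targets of the xenobiotic receptors PXR (Nr1i2) and CAR (Nr1i3), and Cyp3a11 is the standard marker of PXR activation in mouse. Several mouse Cyp3a genes, among them Cyp3a41a, Cyp3a41b, Cyp3a44 and Cyp3a16, are known for expression that depends on sex and age, under the control of the pattern of growth hormone secretion.

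Levels are given as FPKM, the number of mapped fragments set against the length of the transcript and the size of the library, which allows levels of different genes to be compared. Tests were run on zFPKM, a score made from log2 FPKM by subtracting the mode of each mouse's own distribution and dividing by an SD fitted to it. The mode lay between 0.491 and 2.51 and the SD between 2.51 and 3.12 in the 6 mice, so equal FPKM can give unequal zFPKM. Relative depth, with laboratory mouse 2 set to 1, ran from 0.922 to 1.36, and absolute depth is unknown. Xist and 4 Y-linked genes matched the labelled sex in all 6 mice. The hepatocyte markers Ttr and Apoa1 had an FPKM of 7137 or more in every mouse. Alb was listed at 0 in 5 of the 6 and at 21230 FPKM in laboratory mouse 3, and was not tested. Its zeros are not read as absence of the transcript. All 8 Cyp3a genes were listed once and carried no failed estimate in the 5 mice for which failures are marked, and all 8 passed the filter on low values.

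Of the 8 genes, 7 lie in a cluster on chromosome 5 of GRCm38, which spans 853 kb from 145345149 to 146198007 and holds 11 entries named Cyp3a. Cyp3a13 lies outside it on the same chromosome, from 137892933 to 137925610, at a distance of 7.42 Mb. The copies are close in sequence, which matters for reads of 100 bases. In the GENCODE vM21 transcripts, Cyp3a41a and Cyp3a41b differ by 2 bases in coding sequences of 1512 bases, an identity of 99.9%. Of the windows of 100 bases in Cyp3a41a, 88.4% occur letter for letter in Cyp3a41b. The share of the reads given to each of these copies is therefore uncertain, and they are best read as a pair. Cyp3a25 and Cyp3a59 are 97.5% identical in coding sequence but share only 5.58% of the windows of Cyp3a25. Cyp3a11 and Cyp3a44 are 94.9% identical and share 0.223%, and Cyp3a16 is 92.4 to 92.8% identical to Cyp3a11, Cyp3a41a, Cyp3a41b and Cyp3a44. Cyp3a13, the member outside the cluster, is 75.1 to 76.8% identical to each of the others. The reads of the wild mice were aligned to a genome derived from C57BL/6, and what differences in wild alleles do to the counting of these copies was not tested.

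**Figure D1:**
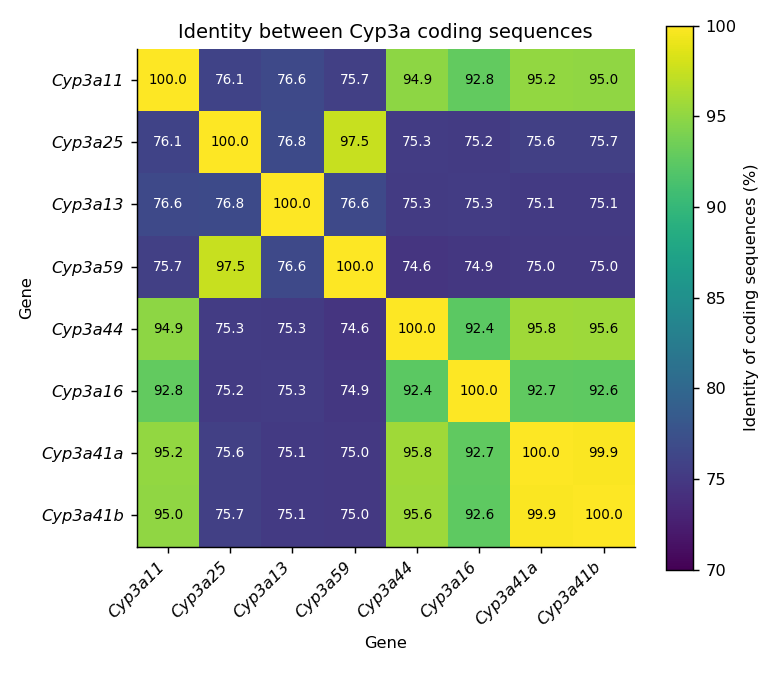
Identity of the coding sequences of the 8 Cyp3a genes in percent of aligned positions, 1 GENCODE vM21 transcript per gene, with genes in both rows and columns and colour from 70% to 100%. Cyp3a11, Cyp3a44, Cyp3a16, Cyp3a41a and Cyp3a41b form a block of 92.4% or more, Cyp3a25 and Cyp3a59 a pair at 97.5%, and Cyp3a13 stands alone.

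The 250 bases before the start that the RefSeq promoter table gives are shown for 4 genes of the first block and for Cyp3a25, because genes with close promoters differed widely in level between the mice. All are on chromosome 5 of GRCm38.p6, written 5′ to 3′ on the minus strand, on which these genes lie, at chr5:145879855-145880104 for Cyp3a11, chr5:145805875-145806124 for Cyp3a44, chr5:145469724-145469973 for Cyp3a16, chr5:145720137-145720386 for Cyp3a41a and chr5:146009619-146009868 for Cyp3a25. These windows reach 17 bases into the gene as the expression tables place it for Cyp3a16 and Cyp3a44, 26 for Cyp3a25 and none for Cyp3a11 and Cyp3a41a, while the whole window of Cyp3a13, not shown, lies inside its gene, so distances are counted from the RefSeq start only. Capitals mark CAAAGTCCA, a known form of the site of the hepatocyte nuclear factor HNF4, and ATCAAT, the core of the site of the Onecut factors.
Cyp3a11: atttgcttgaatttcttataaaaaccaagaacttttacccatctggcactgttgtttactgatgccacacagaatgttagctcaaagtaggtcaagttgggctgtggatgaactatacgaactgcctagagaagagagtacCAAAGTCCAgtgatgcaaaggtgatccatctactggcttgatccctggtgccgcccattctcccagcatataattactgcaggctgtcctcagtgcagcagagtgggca
Cyp3a44: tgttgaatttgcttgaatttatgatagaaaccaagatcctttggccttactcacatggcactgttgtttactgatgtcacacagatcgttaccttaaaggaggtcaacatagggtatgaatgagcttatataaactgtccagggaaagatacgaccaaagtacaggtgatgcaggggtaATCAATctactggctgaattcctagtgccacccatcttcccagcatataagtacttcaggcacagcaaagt
Cyp3a16: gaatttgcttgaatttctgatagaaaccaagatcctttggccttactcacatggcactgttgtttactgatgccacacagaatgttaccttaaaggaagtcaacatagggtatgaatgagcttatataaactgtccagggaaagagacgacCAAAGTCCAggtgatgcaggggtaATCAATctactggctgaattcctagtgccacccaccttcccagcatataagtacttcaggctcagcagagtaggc
Cyp3a41a: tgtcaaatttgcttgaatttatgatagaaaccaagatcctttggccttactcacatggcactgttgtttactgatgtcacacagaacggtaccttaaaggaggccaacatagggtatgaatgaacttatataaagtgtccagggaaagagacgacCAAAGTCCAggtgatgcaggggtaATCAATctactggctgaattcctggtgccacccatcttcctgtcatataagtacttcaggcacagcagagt
Cyp3a25: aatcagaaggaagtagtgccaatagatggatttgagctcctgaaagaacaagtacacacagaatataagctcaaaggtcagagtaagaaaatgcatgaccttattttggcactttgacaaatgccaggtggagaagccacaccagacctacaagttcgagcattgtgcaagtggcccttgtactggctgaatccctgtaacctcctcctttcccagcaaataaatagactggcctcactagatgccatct
The promoter of Cyp3a41b differs from that of Cyp3a41a by 1 base. Cyp3a16 and Cyp3a44 are 92.9% identical over this stretch and Cyp3a41a and Cyp3a44 94.4%, against 71.7% for Cyp3a11 and Cyp3a44 and 49.8% for Cyp3a25 and Cyp3a41a. Of the 8 promoters, 4 hold CAAAGTCCA on either strand, those of Cyp3a11, Cyp3a16, Cyp3a41a and Cyp3a41b. Its first base lies 109 bases before that start in Cyp3a11, 99 in Cyp3a16 and 95 in both Cyp3a41 copies, and 0.381% of 27025 mouse promoters of this length hold it. At the matching place Cyp3a44 has CAAAGTACA, which differs from it by C7A, counted from 1 at the first base of the motif. ATCAAT is found in Cyp3a16, Cyp3a41a, Cyp3a41b and Cyp3a44, 75 bases before that start in Cyp3a16 and 71 in the others, and in 6.97% of all promoters. The hexamer AGGTCA, bound by many nuclear receptors, is found in Cyp3a11, Cyp3a44, Cyp3a25 and Cyp3a59 and in 13.8% of all promoters. TTCNNNGAA, the general form of a STAT site, is in none of the 8 windows and in 7.18% of all. No pair of these matches overlaps. The letters were chosen after the sequences were seen, and the copies share their descent, so the counts describe these windows only.

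Cyp3a11 and Cyp3a25 were the leading Cyp3a genes of the laboratory mice, and both were highest in the wild male. Cyp3a11, which oxidises steroids and most drugs that human CYP3A4 takes, stood at 451, 624 and 250 FPKM in laboratory mice 1, 2 and 3. The wild mice had 3931 in the male and 2273 and 361 in the females. The wild male and wild mouse 2 lay above all laboratory mice, but wild mouse 3 fell inside the laboratory range, so the groups overlapped. Means were 442 ± 187 (SD, n = 3) for laboratory and 2188 ± 1787 (SD, n = 3) for wild mice, and Cyp3a11 ranked 24 by FPKM among all genes of the wild male. Among the 8 genes, Cyp3a11 had the widest spread between the wild females.

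Cyp3a25, another constitutive form of adult liver, stood at 225, 264 and 348 FPKM in laboratory males. In the wild mice it was 744 in the male and 391 and 471 in the females. Every wild mouse was above every laboratory mouse in FPKM, by a margin of 348 against 391 at the closest point. The same held for 43.7% of all genes tested. The mean of 535 ± 185 (SD, n = 3) in wild mice was 1.92 times the mean of 279 ± 63.1 (SD, n = 3) in laboratory mice. In zFPKM the groups overlapped, with 2.35 to 2.52 for laboratory and 2.34 to 2.61 for wild mice. Cyp3a11 exceeded Cyp3a25 in 4 mice, by 2.01-fold and 2.37-fold in laboratory mice 1 and 2 and by 5.28-fold and 5.81-fold in wild mice 1 and 2, and was the lower of the pair in laboratory mouse 3 and wild mouse 3.

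Cyp3a13, the member outside the cluster and one also known from gut, was measured at 13.0, 21.4 and 12.1 FPKM in laboratory males and at 73.0, 110 and 61.0 FPKM in the wild animals. All wild mice, of either sex, were above all laboratory mice. The wild mean of 81.2 ± 25.3 (SD, n = 3) was 5.24 times the laboratory mean of 15.5 ± 5.11 (SD, n = 3). Cyp3a59, the near copy of Cyp3a25, was measured at 12.9, 13.5 and 14.1 FPKM in laboratory males and at 53.9, 84.6 and 48.6 FPKM in the wild animals. Again the groups did not overlap, and 43.7% of all genes tested likewise had every wild mouse above every laboratory mouse. The ratio of the means was 4.62, with 62.4 ± 19.4 (SD, n = 3) in wild and 13.5 ± 0.579 (SD, n = 3) in laboratory mice. For both genes the wild male lay between the wild females.

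The other 4 genes were near silent in laboratory males and abundant in wild females. Cyp3a41a was close to nothing in laboratory males, at 0.0575, 0.0576 and 0.0416 FPKM, and stood at 2.64 FPKM in wild mouse 1 and 1753 and 1611 FPKM in the wild females. Its copy Cyp3a41b followed it in every mouse, with 0.0549, 0.0549 and 0.0397 FPKM in laboratory males, 2.45 FPKM in wild mouse 1 and 1465 and 1441 FPKM in the females. The females stood 636-fold and 593-fold above the wild male in mean FPKM for Cyp3a41a and Cyp3a41b, and the laboratory males were lower still. Summed over the pair, the FPKM was at most 0.112 in laboratory males, 5.10 in wild mouse 1, 3217 in wild mouse 2 and 3052 in wild mouse 3. The upper bounds that come with the estimates correspond to about 1 read per copy in laboratory mice 2 and 3, so no fold against laboratory mice is given for these genes.

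Cyp3a16, known as a form of young liver, gave 0.325, 0.357 and 0.141 FPKM in laboratory males, 2.96 FPKM in wild mouse 1 and 385 and 192 in the wild females. Here too the females stood apart, at 97.4 times the wild male in the mean. Cyp3a44, a form described as female-biased, gave 0.241, 0.883 and 0.314 FPKM in laboratory males, 62.1 FPKM in wild mouse 1 and 372 and 307 in the wild females. In contrast to Cyp3a16 and the Cyp3a41 copies, Cyp3a44 was already well expressed in the wild male. The females had 5.47 times the FPKM of the wild male, and the wild male 130 times the mean of the laboratory males of 0.479 ± 0.352 (SD, n = 3).

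**Figure D2:**
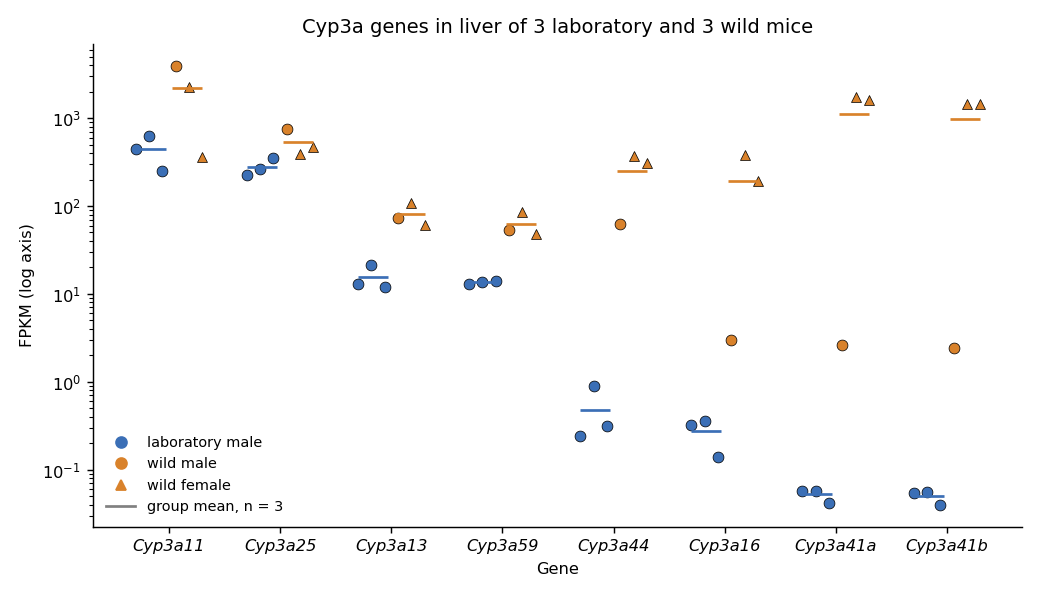
FPKM of the 8 Cyp3a genes on a log axis, 1 point per mouse, with laboratory mice in blue and wild mice in orange, males as circles and females as triangles, and a line at each group mean (n = 3). Wild mice lie above laboratory mice for all genes but Cyp3a11, as they do for 43.7% of all genes tested. The wild females part from the wild male for Cyp3a16, Cyp3a41a and Cyp3a41b.

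Ordered by FPKM in laboratory mice, Cyp3a11 and Cyp3a25 led, followed by Cyp3a13 and Cyp3a59, then Cyp3a44 and Cyp3a16, and last Cyp3a41a and Cyp3a41b. Within each of these neighbouring pairs the ranges overlapped. The order changed between mice in all but the last pair, which differed by less than its spread. In the wild male the order was Cyp3a11, Cyp3a25, Cyp3a13, Cyp3a44, Cyp3a59, Cyp3a16, Cyp3a41a and Cyp3a41b. In wild mouse 3 the Cyp3a41 copies led, ahead of Cyp3a25 and Cyp3a11, and in wild mouse 2 Cyp3a11 led ahead of the copies.

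The family thus differed both in amount and in make-up. Summed over the 8 genes, the FPKM came to 702, 924 and 625 in laboratory males and 4873, 6834 and 4492 in the wild animals, a mean of 750 ± 155 (SD, n = 3) against 5399 ± 1257 (SD, n = 3). All wild mice were above all laboratory mice in this sum. Cyp3a11 made up 64.2%, 67.6% and 40.0% of it in laboratory males and 80.7% in the wild male, but 33.3% and 8.03% in wild mice 2 and 3. Cyp3a16, Cyp3a41a, Cyp3a41b and Cyp3a44 together made up at most 0.146% in laboratory males, 1.44% in wild mouse 1 and 58.2% and 79.0% in the wild females. In bulk liver, fewer cells of a type and less RNA per cell cannot be told apart.

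**Figure D3:**
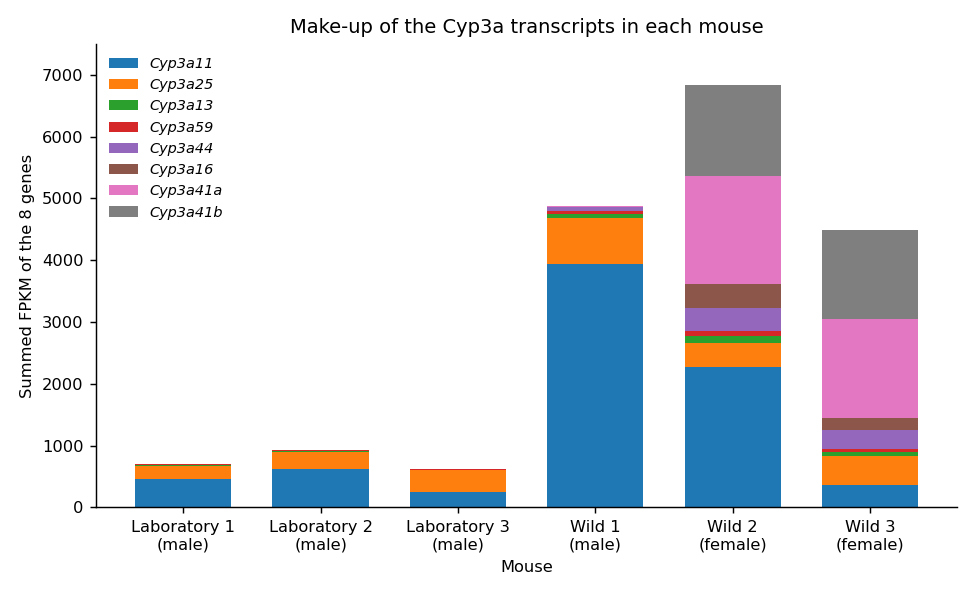
FPKM of the 8 Cyp3a genes stacked for each mouse, with the sex of the mouse under its name. Wild male and females reach sums of 4492 to 6834 against 625 to 924 in laboratory mice, made mostly of Cyp3a11 in the male and of the Cyp3a41 copies in wild mouse 3.

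The question of origin was put first, with limma on the zFPKM of 18627 genes and Benjamini-Hochberg adjustment over all of them. Of the 8 genes, 7 were lower in laboratory mice, all but Cyp3a25, and none was higher, where 7.26% of all genes were called lower and 7.19% higher. The difference, laboratory minus wild, was -3.82 for Cyp3a41a (standard error 0.250, adjusted p = 1.9e-49) and -3.78 for Cyp3a41b (standard error 0.255, adjusted p = 2.0e-46). Cyp3a44 differed by -2.83 (adjusted p = 1.9e-46) and Cyp3a16 by -2.46 (adjusted p = 5.7e-23). Of these 4, Cyp3a41a, Cyp3a41b and Cyp3a16 were also called between wild females and the wild male. Cyp3a44 was not, though its mean FPKM in the wild females was 5.47 times that of the wild male. The laboratory mice were all male and most wild mice female, so this comparison does not separate origin from sex for any of the 8 genes. Males of either origin are compared further below, with 1 wild male. Smaller differences were found for Cyp3a13, at -0.58 (standard error 0.145, adjusted p = 0.00106), and Cyp3a59, at -0.50 (standard error 0.150, adjusted p = 0.0104). Cyp3a11 was called at -0.40 (adjusted p = 0.000755) although its groups overlapped, and Cyp3a25 was not, at -0.05 (standard error 0.104, adjusted p = 0.803).

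The median difference of the 8 genes was -1.52, beside 0.00517 over all genes tested. A two-sided exact permutation test of each gene gave p = 0.1, the smallest that 3 mice against 3 allow, for Cyp3a13, Cyp3a16, Cyp3a41a, Cyp3a41b, Cyp3a44 and Cyp3a59, p = 0.4 for Cyp3a11 and p = 0.7 for Cyp3a25. In this limma fit the spread was pooled over all genes (74496 degrees of freedom in all), so a gene's own spread did not enter. With a variance prior that ignores the level of expression, Cyp3a44 alone was called (adjusted p = 0.0094), where 1.9% of genes were called lower.

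On the scale of log2(FPKM + 1), which does not rescale each mouse by its own mode and SD, 7 of the 8 genes were again lower in laboratory mice, now with Cyp3a25 in place of Cyp3a11. On that scale 36.9% of all genes were called lower, and the median over all genes was -0.19. The difference was -0.91 for Cyp3a25 (adjusted p = 0.0375) and -1.84 for Cyp3a11 (adjusted p = 0.134), against -2.32 for Cyp3a13 and -2.08 for Cyp3a59. On the same scale 7.45% of all genes were called higher. Every wild mouse was above every laboratory mouse in FPKM for 7 of the 8 genes, as it was for 43.7% of all genes tested. Without wild mouse 2 only 4 of the 8 were called in zFPKM, with Cyp3a13 (adjusted p = 0.0892) and Cyp3a59 (adjusted p = 0.236) among those lost. Cyp3a59 was also lost without wild mouse 3 (adjusted p = 0.0709) or laboratory mouse 3 (adjusted p = 0.0559). For Cyp3a11 the call in zFPKM rested on single mice. The adjusted p was 0.666 without wild mouse 1, 0.0717 without wild mouse 2 and 0.486 without laboratory mouse 3, and the difference was -0.73 without wild mouse 3 (adjusted p = 1.6e-08).

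Wild females were compared with the wild male through the sex term of a fit with origin and sex, in which the lone wild male is assumed to vary like the other mice. Of the 8 genes, 3 were higher in the females, where 0.322% of all genes were called higher and 0.0591% lower. These were Cyp3a41a, at 3.47 in zFPKM (standard error 0.408, adjusted p = 0.000897), Cyp3a41b, at 3.44 (standard error 0.413, adjusted p = 0.00103), and Cyp3a16, at 2.52 (standard error 0.434, adjusted p = 0.0211). The median over all genes was itself shifted by 0.375 in this comparison, and relative to it the 3 differences were 3.09, 3.06 and 2.15. Cyp3a44 did not pass, at 1.0 in zFPKM (standard error 0.354, adjusted p = 0.324), or 0.63 less the median, which was not tested itself, and passed when any 1 laboratory mouse was left out (adjusted p 0.0128 to 0.0334). With no median taken off, Cyp3a11 differed by -0.77 (adjusted p = 0.280), Cyp3a25 by -0.21, Cyp3a13 by 0.23 and Cyp3a59 by 0.27, none of which passed. Relative to the median the last pair turned to -0.15 and -0.10, so no direction is given for them. Leaving out wild mouse 2 or wild mouse 3 left none of the 8 called by limma (4 and 3 at an unadjusted p under 0.05) and none of all 18627 genes (879 and 980), while 5 of the 8 were called without laboratory mouse 1 or 2. These fits added Cyp3a44, higher in the females, and Cyp3a11, lower in them. Their differences, 1.0 and -0.77, were unchanged by the mouse left out. Only the estimated spread changed, so the added calls are not read as stronger evidence. Calls over all 18627 genes numbered 238 and 225 in those fits, 5006 without laboratory mouse 3 and 71 with all mice.

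With sex held fixed, laboratory males against the wild male gave 4 of the 8 genes lower in laboratory mice, where 1.35% of all genes were called lower and 6.19% higher. Cyp3a44 had the largest difference, at -2.16 in zFPKM (standard error 0.334, adjusted p = 0.00271). Cyp3a41a and Cyp3a41b followed at -1.51 (adjusted p = 0.0325) and -1.49 (adjusted p = 0.0355), both resting on about 1 read per copy in laboratory mice 2 and 3, and Cyp3a11 at -0.91 (standard error 0.239, adjusted p = 0.0364). The others ran from -0.78 for Cyp3a16 to -0.20 for Cyp3a25, all with an adjusted p of 0.267 or more. The median over all genes was 0.275, and relative to it Cyp3a44 differed by -2.44 and Cyp3a11 by -1.18. On log2(FPKM + 1), 7 of the 8 were lower in laboratory mice, where 26.9% of all genes were called lower, and Cyp3a11 did not pass at -3.25 (adjusted p = 0.0650). This comparison rests on 1 wild male, and the number of the 8 called moved both ways with the setting. That number fell with a floor of -5 and rose with medians set to 0 in each mouse and on log2(FPKM + 0.1). By limma none of the 8 was called without the variance trend (3 at an unadjusted p under 0.05), and none of the 8 or of all genes without wild mouse 2 or wild mouse 3 (2 of the 8 in each case, and 3135 and 3151 of all genes, at an unadjusted p under 0.05). None of the 8 was called without a filter on low values (1 at an unadjusted p under 0.05) or with a floor of -20 (3).

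**Figure D4:**
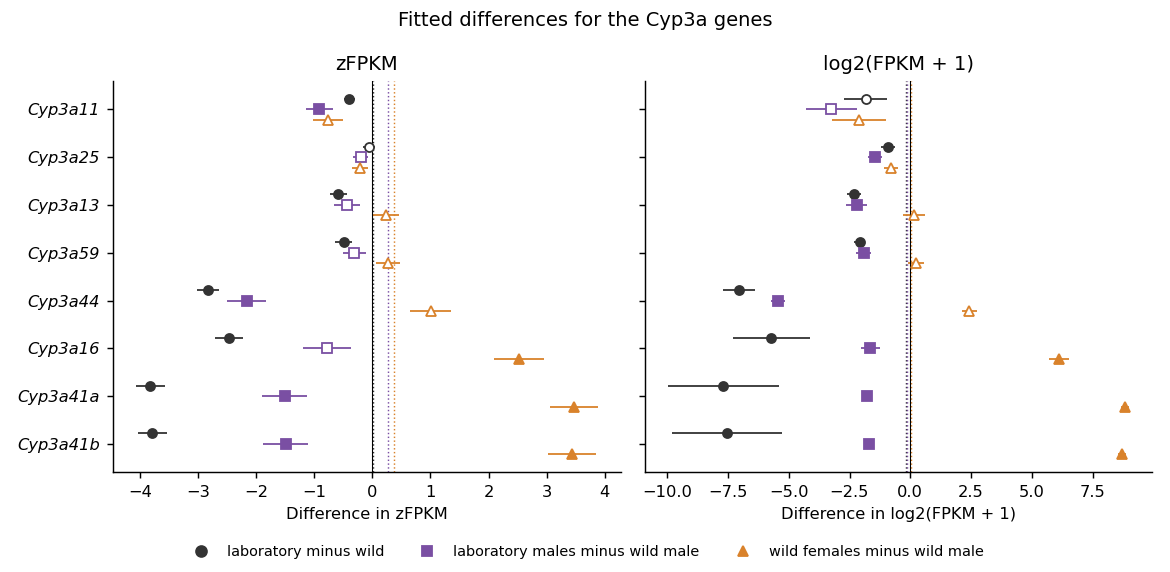
Fitted differences of the 8 Cyp3a genes with standard errors in 3 comparisons, in zFPKM on the left and log2(FPKM + 1) on the right, with filled symbols for an adjusted p under 0.05 and dotted lines at the median of all genes in each comparison. The gap between wild females and the wild male is widest for Cyp3a41a and Cyp3a41b, and Cyp3a44 differs most between males of different origin.

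Over the 6 mice, zFPKM of the genes near silent in laboratory males moved together. Pearson r was 0.991 between Cyp3a16 and Cyp3a41a and 0.946 between Cyp3a44 and Cyp3a41a. Cyp3a13 and Cyp3a59 had r = 0.971 and were not set apart from those genes. Cyp3a59 had r = 0.939 with Cyp3a16 and 0.914 with Cyp3a41a, and Cyp3a13 had 0.926 with Cyp3a44 and 0.864 with Cyp3a41a. Cyp3a11 had r = 0.137 with Cyp3a41a and 0.201 with Cyp3a25, whose own r with the other members ran from -0.33 to 0.20. Outside the family, among 1457 genes with a zFPKM range of 2 or more, the closest to Cyp3a41a were Cyp2a4 (r = 0.996), Sult3a1 (r = 0.986) and Cyp2b13 (r = 0.985), all known as female-biased liver genes. Cyp2b13 was listed at 0 in laboratory males, at 0.303 FPKM in wild mouse 1 and at 387 and 262 in the wild females. Closest to Cyp3a44 were Corin, Gm1943 and Echdc1 (r = 0.994 or more), to Cyp3a16 Rcan2 (r = 0.995), and to Cyp3a59 Id4 (r = 0.996). For Cyp3a13 the closest were Gm5880, Gm39214 and Gm9115, all low. No gene was as close to Cyp3a11, for which Rpl34-ps1 led at r = 0.895, or to Cyp3a25, for which Gm10154 led at r = 0.737. All of these correlations share the same 6 libraries and the same split of origin and sex, and are descriptions.

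Other entries named Cyp3a stayed low. Cyp3a57, in the cluster, gave 0, 0.0933 and 0 FPKM in laboratory males against 0.612, 0.339 and 0.196 in wild mice. The pseudogene Cyp3a63-ps was listed at 0 in all males and at 0.464 and 1.28 in the wild females. The other 3 pseudogenes had an FPKM of 0.0587 or less in every mouse. Inside the cluster and within 200 kb of it lie 29 entries of other names, of which 14 were tested. In zFPKM only Atp5j2, a subunit of mitochondrial ATP synthase, was called by limma between laboratory and wild mice, and in the opposite direction. It had 554 to 735 FPKM in laboratory and 439 to 532 in wild mice (difference 0.41, adjusted p = 0.000809). Over all genes 7.19% were called higher in laboratory mice and 7.26% lower, so 1 call among 14 is near the share over all genes. None of the 14 was called by limma between wild females and the wild male (0 at an unadjusted p under 0.05) or between males (1). On log2(FPKM + 1), Bud31, Zkscan14, Zfp655 and Rnf6 were called lower in laboratory mice, from -0.76 for Rnf6 to -1.05 for Zfp655. Atp5j2 was not called on that scale, and Bud31 and Zfp655 were also lower in laboratory males than in the wild male. There the shares over all genes were 36.9% lower in laboratory mice and 26.9% lower in laboratory males. The pseudogene Selenok-ps2, which lies between Cyp3a41a and Cyp3a44, was listed at 0 in all 4 males and at 11.6 and 9.37 in the wild females, and was not among those tested.

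Of 14 known regulators of Cyp3a transcription, 13 were tested, and 1 was lower and 1 higher in laboratory mice. Shares over all genes were 7.26% lower and 7.19% higher. Rxra, the partner of both PXR and CAR, was lower, at 13.7 to 18.4 FPKM against 73.1 to 88.8 (difference -0.55, adjusted p = 0.0023). Nr1h4, the bile acid receptor, was higher in laboratory mice, at 52.8 to 95.6 against 36.5 to 52.0 (difference 0.51, adjusted p = 0.0022). PXR itself (Nr1i2) had an FPKM of 15.1 to 29.0 in laboratory and 25.7 to 26.6 in wild mice, and CAR (Nr1i3) 20.7 to 46.6 and 39.7 to 84.5, both overlapping and not called. The median over the list was -0.03. On log2(FPKM + 1) 5 of the 13 were lower and none higher in laboratory mice, with a median of -0.75. Over all genes 36.9% were lower and 7.45% higher on that scale, with a median of -0.19. None of the 13 was called by limma between wild females and the wild male, with 2 at an unadjusted p under 0.05.

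Growth hormone signalling genes and sex-pattern factors, 10 in all, had 3 higher and 1 lower in laboratory mice. Among all genes 7.19% were higher and 7.26% lower. The growth hormone targets Igf1 and Socs2 were higher, Igf1 at 111 to 138 FPKM against 47.9 to 54.0 (difference 0.70, adjusted p = 2.0e-06) and Socs2 at 12.1 to 13.4 against 2.85 to 7.67 (difference 0.81, adjusted p = 0.0008). Bcl6, a repressor with a male bias, was higher in zFPKM (difference 0.60, adjusted p = 0.019) but not on log2(FPKM + 1) (adjusted p = 0.293), with overlapping FPKM. On the latter scale 2 of the 10 were higher and 4 lower, with a median of -0.53, where 7.45% of all genes were higher and 36.9% lower. Cux2, a factor of female liver, had an FPKM of at most 0.0903 in males of either origin and of 6.10 and 7.79 in the wild females, and was called between wild females and the wild male (difference 2.70, adjusted p = 0.024). Bcl6 was called there as well, and was higher in the females, at 2.03 FPKM in wild mouse 1 against 7.09 and 13.3 FPKM (difference 1.14, adjusted p = 0.048). The median over all genes was 0.375 there, and on log2(FPKM + 1) Bcl6 was not called by limma (adjusted p = 0.208).

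The female-biased liver genes, a list of 10, were all lower in laboratory mice, and 8 of them were higher in the wild females than in the wild male. Over all genes the shares in laboratory mice were 7.26% lower and 7.19% higher in zFPKM, and 36.9% and 7.45% on log2(FPKM + 1). Between wild females and the wild male, 0.322% of all genes were higher in the females and 0.0591% lower. Sult3a1, a sulphotransferase, was listed at 0 in laboratory males, at 0.438 FPKM in wild mouse 1 and at 2076 and 1932 in the females. Cyp2b9 resembled Cyp3a44 in its levels, listed at 0 in laboratory males, at 29.7 FPKM in wild mouse 1 and at 341 and 319 in the females. The median of the list was -3.76 between laboratory and wild mice and 2.77 between wild females and the wild male. Only 5 of the 10 were lower in laboratory mice on log2(FPKM + 1), with a median of -5.71. Of 11 male-biased liver genes 10 were tested, with 7 higher and 1 lower in laboratory mice and 4 lower in the wild females. Cyp2d9, a male steroid hydroxylase, had an FPKM of 528 to 789 in laboratory males and 655 in the wild male against 43.6 and 44.3 in the females. In laboratory mice 2 of the 10 were higher and 1 lower on log2(FPKM + 1).

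The other PXR and CAR target genes, 15 in all, had 9 lower and none higher in laboratory mice, with a median of -0.72. There were 11 lower and none higher on log2(FPKM + 1), with a median of -2.03. Among all genes 7.26% were lower in zFPKM and 36.9% on log2(FPKM + 1). Cyp2c29, a P450 of the same receptors, had an FPKM of 33.0 to 59.5 in laboratory and 1129 to 2763 in wild mice (difference -1.55, adjusted p = 1.1e-43). Ugt1a1, which conjugates bilirubin, had 4.49 to 5.91 against 205 to 343 (difference -1.75, adjusted p = 3.4e-31). Cyp2b10, the standard marker of CAR activation, was at most 0.169 FPKM in laboratory males, against 43.4, 9.42 and 7.62 FPKM in wild mice 1, 2 and 3. Cyp2b10, Cyp2c29 and Aldh1a1 were, like Cyp3a11, highest in the wild male. Abcb1a, Abcc2, Abcc3, Aldh1a7, Ces2a and Gadd45b were instead lower in the wild male than in both wild females. Between wild females and the wild male the list had a median of 0.32 in zFPKM, beside 0.375 over all genes. Ces2a and Gstm1 were not called, at 138 to 160 against 121 to 190 and at 1784 to 2201 against 2230 to 2854. In zFPKM none of the 15 was called by limma between wild females and the wild male (4 at an unadjusted p under 0.05), while on log2(FPKM + 1) Cyp2b10 was lower in the females (difference -2.23, adjusted p = 0.0358). In zFPKM 5 were lower in laboratory males than in the wild male, as were 1.35% of all genes.

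Among 15 genes of P450 electron supply and haem synthesis, 4 were lower and none higher in laboratory mice. Por, the reductase of all microsomal P450s, had an FPKM of 39.7 to 44.9 in laboratory and 116 to 245 in wild mice (difference -0.41, adjusted p = 0.013). Cyb5b, Cpox and Fech were the other 3. Alas1, the first step of haem synthesis, was not called in zFPKM, at 16.5 to 21.1 FPKM against 31.7 to 104, but was on log2(FPKM + 1) (adjusted p = 0.0327). The median of the list was -0.17 in zFPKM. On log2(FPKM + 1) 11 of the 15 were lower and none higher, with a median of -1.14. The share of all genes called lower was 36.9% on that scale and 7.26% in zFPKM.

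**Figure D5:**
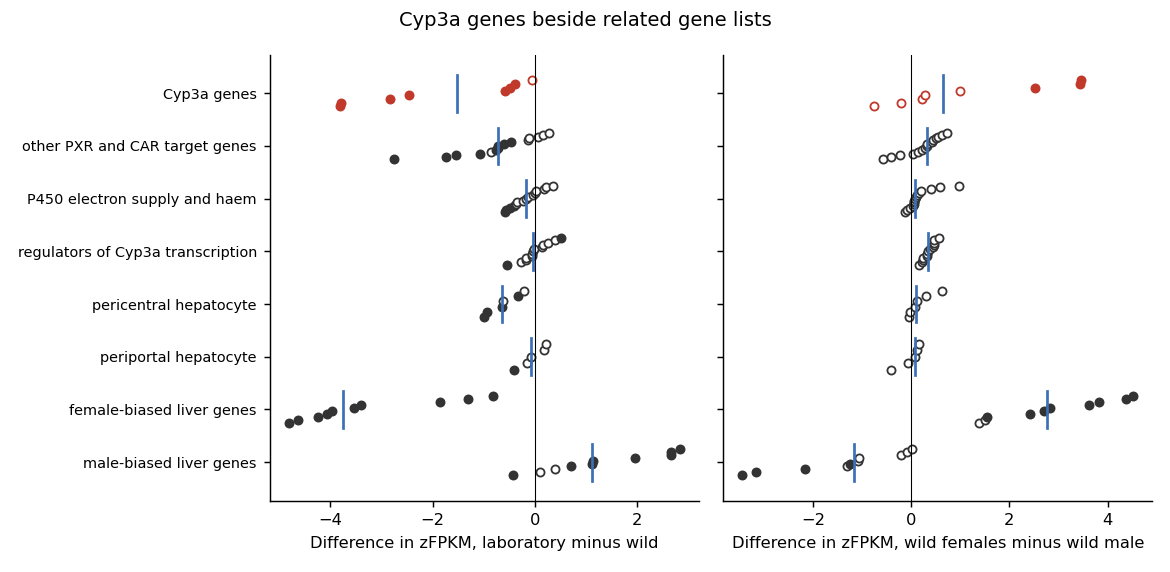
Differences in zFPKM of the Cyp3a genes (red) and of the genes of 7 lists, laboratory minus wild on the left and wild females minus wild male on the right, with filled points for an adjusted p under 0.05 and a blue line at each median. On the left the median of the Cyp3a genes, -1.52, lies between those of the PXR and CAR targets, -0.72, and of the female-biased genes, -3.76.

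Markers of other liver cells and zones were read in the same way. In laboratory mice 7.26% of all genes were lower and 7.19% higher in zFPKM, and 36.9% and 7.45% on log2(FPKM + 1). Of 6 markers of pericentral hepatocytes, the zone where most P450 is found, 4 were lower and none higher in laboratory mice, and their summed FPKM was 506 to 909 in laboratory and 4418 to 4970 in wild mice. Cyp2e1 made up most of it, at 242 to 519 against 3229 to 3650. Of 5 periportal markers, 1 was lower in laboratory mice, with sums of 710 to 905 against 1128 to 1678. The part of this zonal pattern in the Cyp3a differences was not tested. Erythrocyte markers had 4 of 5 higher in laboratory mice, with sums of 877 to 3526 against 507 to 1248, and biliary markers 1 of 5, with 29.7 to 64.6 against 12.2 to 27.6, and their part in the Cyp3a differences was not tested either. No Kupffer cell marker of 5 and no marker of sinusoidal endothelium of 4 was called by limma between laboratory and wild mice, with 1 of each at an unadjusted p under 0.05. Between wild females and the wild male none of these was called either, but all 5 Kupffer markers and all 4 of endothelium had an unadjusted p under 0.05, with medians of 1.28 and 0.73 in zFPKM, beside 0.375 over all genes. The summed FPKM of the Kupffer markers was 11.3 in wild mouse 1 and 40.0 and 105 in the wild females, and that of endothelium 18.2, 56.9 and 31.4. Clec4f (adjusted p = 0.0069) and Stab2 (adjusted p = 0.0301) were called between males. The part of these cells in the Cyp3a sex difference was not tested. Enterocytes, another site of Cyp3a13 and Cyp3a11, left little trace, with Sis and Alpi at 0 in all mice and the summed FPKM of the 7 markers at 28.9 to 40.7 in laboratory and 24.9 to 43.9 in wild mice, nearly all of it Fabp2, which liver is also known to express. Of the 8 hepatocyte markers 6 were tested, with 3 higher and 3 lower in laboratory mice. On log2(FPKM + 1) the calls in laboratory mice were 6 lower for pericentral, 3 lower for periportal, 2 higher for erythrocyte, 1 higher for biliary and 1 higher and 3 lower for hepatocyte markers, 1 lower for enterocyte markers, and none for Kupffer cells and endothelium.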

How the data were processed

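RNA from frozen liver of 3 laboratory and 3 wild mice was sequenced as stranded mRNA libraries with single reads of 100 bases. The authors aligned reads to the masked GRCm38.p6 genome with kalign, obtained FPKM from the Tuxedo pipeline, and deposited FPKM and a zFPKM score per gene. The files hold no counts, so the count test of the study was replaced by limma 3.58.1 in R 4.3.3 on zFPKM. Values were floored at -3, and a gene was tested if 3 or more of 6 mice exceeded -3. Failed estimates, and exact zeros in laboratory mouse 1 where all other estimates exceeded a zFPKM of 0, were missing. Origin was fitted alone and together with sex. Replicates are separate animals, 3 mice per group. With origin fitted alone, standard errors came from a spread pooled over all genes, not from each gene's own spread. The gene and marker lists, and the genes named from them (those called, and the highest and lowest), were chosen with earlier results of these data known. Genes alike in pattern were ranked by Pearson r over the 6 mice. Starts in the files count from 0, so 1 was added. Promoters come from RefSeq (all 8 genes matched) and transcripts from GENCODE vM21, aligned with Biopython 1.88 in Python 3.11.15. The limma step was tested on simulated data. Alternatives were other floors, filters, scales, normalizations, variance priors, sex as a covariate, summed Cyp3a41 copies, geometric means and each mouse left out.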

Additional observations from a re-analysis of the deposited data

How the results depend on the processing

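Genes called between laboratory and wild mice numbered 2692. Without a filter they numbered 21, with a floor of -20 1198, without the variance trend 796, with sex as a covariate 1405, with medians set to 0 in each mouse 5285, after quantile normalization 7292, and on log2(FPKM + 1) and log2(FPKM + 0.1) 8254 and 8599. Leaving out 1 mouse gave 1418 to 2567, fewest without wild mouse 3, with 1659 and 1751 without laboratory mice 1 and 2 and 1696 without wild mouse 2. Called Cyp3a genes numbered 7 of 8, and by limma 0 without a filter (5 at an unadjusted p under 0.05), 1 with a floor of -20, 1 without the trend, 4 with sex as a covariate and 4 to 7 without 1 mouse, lowest without wild mouse 2. Leaving out 1 mouse moved Cyp3a25 from -0.12 to 0.016, reversed without wild mouse 1. Genes called between wild females and the wild male numbered 71, and 324 without a filter, 439 with a floor of -20, 390 with zFPKM above -3 in all 6 mice and 12 without the trend. Leaving out 1 mouse gave 0 to 5006, with 0 without wild mouse 2 or 3 (879 and 980 at an unadjusted p under 0.05 by limma), 238 and 225 without laboratory mice 1 and 2 and 5006 without laboratory mouse 3. Called Cyp3a genes there numbered 3, and by limma 0 without a filter, with a floor of -20 and without the trend (3 each at an unadjusted p under 0.05), 5 with zFPKM above -3 in all 6 mice and 0 to 5 without 1 mouse. With medians set to 0, Cyp3a13 reversed to -0.24 and Cyp3a59 to -0.20. Cyp3a57 reversed to -0.45 there, to -0.35 and -0.98 on log2(FPKM + 1) and log2(FPKM + 0.1), to -0.54 after quantile normalization and ranged from -0.23 (without wild mouse 2) to 0.28 without 1 mouse. The cause was not tested. No paired analysis was possible because replicate numbers only name the mice.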
